A study of Mus musculus with 10 samples.

Results

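Glycolysis splits glucose into pyruvate in the cytosol, and the tricarboxylic acid (TCA) cycle oxidises the acetyl groups made from pyruvate in mitochondria. The genes described here are 35 mouse genes for these steps, listed by name. There are 21 genes of glycolysis and transport, which cover glucose uptake, the glycolytic enzymes, lactate dehydrogenase and lactate export. The other 14 encode pyruvate dehydrogenase, the enzymes of the TCA cycle and the cytosolic enzymes *Idh1* and *Mdh1*. Among the 18193 genes that the array measures with a probe set of 1 symbol, 32 are members, and all 32 were among the 12199 genes bright enough to be tested. *Gpi1* and *Eno1* had no probe set in the annotation used here. *Gapdh* is held by 3 control probe sets and by 3 probe sets that are shared with other symbols, so no level of its own was tested.

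Glucose enters cells through facilitated transporters, is phosphorylated by hexokinase and is committed to glycolysis by phosphofructokinase. Pyruvate can then be reduced to lactate by lactate dehydrogenase and leave through monocarboxylate transporters, or be turned into acetyl-CoA by pyruvate dehydrogenase for the TCA cycle. Several steps are encoded by paralogs that differ in tissue use, such as *Hk1* and *Hk2* or *Ldha* and *Ldhb*. Pluripotent cells in culture are known for strong glycolysis.

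The study derived primordial germ cells in culture (iPGCs) from embryonic stem cells of the mouse (ESCs) and compared sorted populations on Affymetrix Mouse Genome 430 2.0 arrays. The 5 groups hold 2 arrays each. ESCs of the V6.5 line, of 129xBL6 F1 background, were positive for SSEA1 and cKit and had been maintained on mouse embryonic fibroblasts (day 0). The other groups came from hanging-drop embryoid bodies (EBs) kept without LIF for 6 days. In the V6.5 line, iPGCs were SSEA1+ and bright for cKit, and somatic cells were negative for both. In the Oct4-Gfp line, of mixed background, a Gfp reporter of *Oct4* (*Pou5f1*) replaced SSEA1 in the gates, so iPGCs were Gfp+ and bright for cKit and somatic cells were negative for both. No ESC array of the Oct4-Gfp line was used, and line, background and sort marker cannot be told apart. Nothing in the labels says that replicate arrays came from separate cultures, so the p-values measure the spread between these arrays, which may be technical.

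Markers of each population were read first. The summed signal of 6 pluripotency genes lay between 39746 and 40311 on ESC arrays, between 29194 and 33029 on iPGC arrays, and between 393 and 3595 on somatic arrays. The sum of 7 germ cell genes was 5630.4 to 6249 in ESCs, 11976 to 12654 in iPGCs and 570.1 to 768 in somatic cells. Somatic cells were a mixture: 7 genes of mesoderm and heart summed to 20928 to 24013 there, against 118 to 188 in ESCs and 637 to 1175 in iPGCs. The 8 fibroblast genes summed to 9467 to 14411 there, against 949 to 1075 in ESCs and 463 to 747 in iPGCs. Not every gene moved with its sum. In somatic cells against ESCs, 5 of 7 tested fibroblast genes were higher and 2 lower (limma, adjusted p under 0.05). Of the 7 germ cell genes, 6 were lower and 1 was higher. Over all genes, 32.6% were higher and 34.7% lower. All 4 measured blood genes were above background on every somatic array, with sums between 2462 and 18455, whereas 1 of them was above background on the ESC and iPGC arrays. The ratio of the 3 prime to the 5 prime control probe set of *Gapdh*, a measure of RNA integrity, was 1.28 to 1.30 on ESC arrays, 1.51 to 2.37 on iPGC arrays and 1.65 to 2.05 on somatic arrays.

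All 32 members had signals above background on all 10 arrays, background being the 95th percentile of olfactory receptor probe sets (12.6 to 25.4 per array). Signals are linear intensities, and differences are on the log2(signal + 14.8) scale with the standard error of a limma model that holds all 5 groups. A gene was called at an adjusted p under 0.05 over all probe sets tested. Levels of different genes are not compared, because a probe set's brightness depends on its probes.

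Against ESCs, iPGCs had lower signals for most of glycolysis and mixed changes in the TCA cycle. Of the 18 glycolysis and transport genes, 12 fell and 1 rose, and their median log2 difference was -0.60. Over all genes tested, 21% (2558 genes) were called lower and 24.5% higher, with a median of 0.04. Of the 14 TCA cycle genes, 2 rose and 2 fell, and the median was 0.10. No test compared one list with the other. Between iPGCs and ESCs 0 of 6 pluripotency markers were called, with a median log2 difference of -0.31. Of 7 mesoderm and heart markers, 6 were called higher in iPGCs than in ESCs. Of 7 fibroblast markers, which feeder cells express, 4 were called lower and 1 higher. Their part in the result was not tested. In a bulk population, fewer cells of a type and less RNA per cell cannot be told apart.

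The monocarboxylate transporter *Slc16a3*, which exports lactate from glycolytic cells, was at 1962 and 1899 on the ESC arrays. Its signals were 667 and 543 in V6.5 iPGCs and 342 and 335 in iPGCs of the Oct4-Gfp line. Somatic cells had 1391 and 1317 in V6.5 and 1345 and 1375 in Oct4-Gfp. The 3 kinds of cell did not overlap, with iPGCs lowest and ESCs highest. The log2 difference of iPGCs was -2.06 ± 0.12 (SE) against ESCs, a 4.17-fold lower level (adjusted p = 8.2e-05), and -1.55 ± 0.10 against somatic cells (adjusted p = 5.3e-06). The difference between somatic cells and ESCs was -0.50 ± 0.12 (adjusted p = 0.0063). *Slc16a1*, the other monocarboxylate transporter measured, moved the other way: it was the 1 member of its list that rose in iPGCs, with an ESC mean of 3981 ± 173 (SD, n = 2) and an iPGC mean of 5588 ± 484 (SD, n = 4), a log2 difference of 0.48 ± 0.12 (adjusted p = 0.016). Its other probe set had a difference of 0.18 and was not called.

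**Figure D1:**
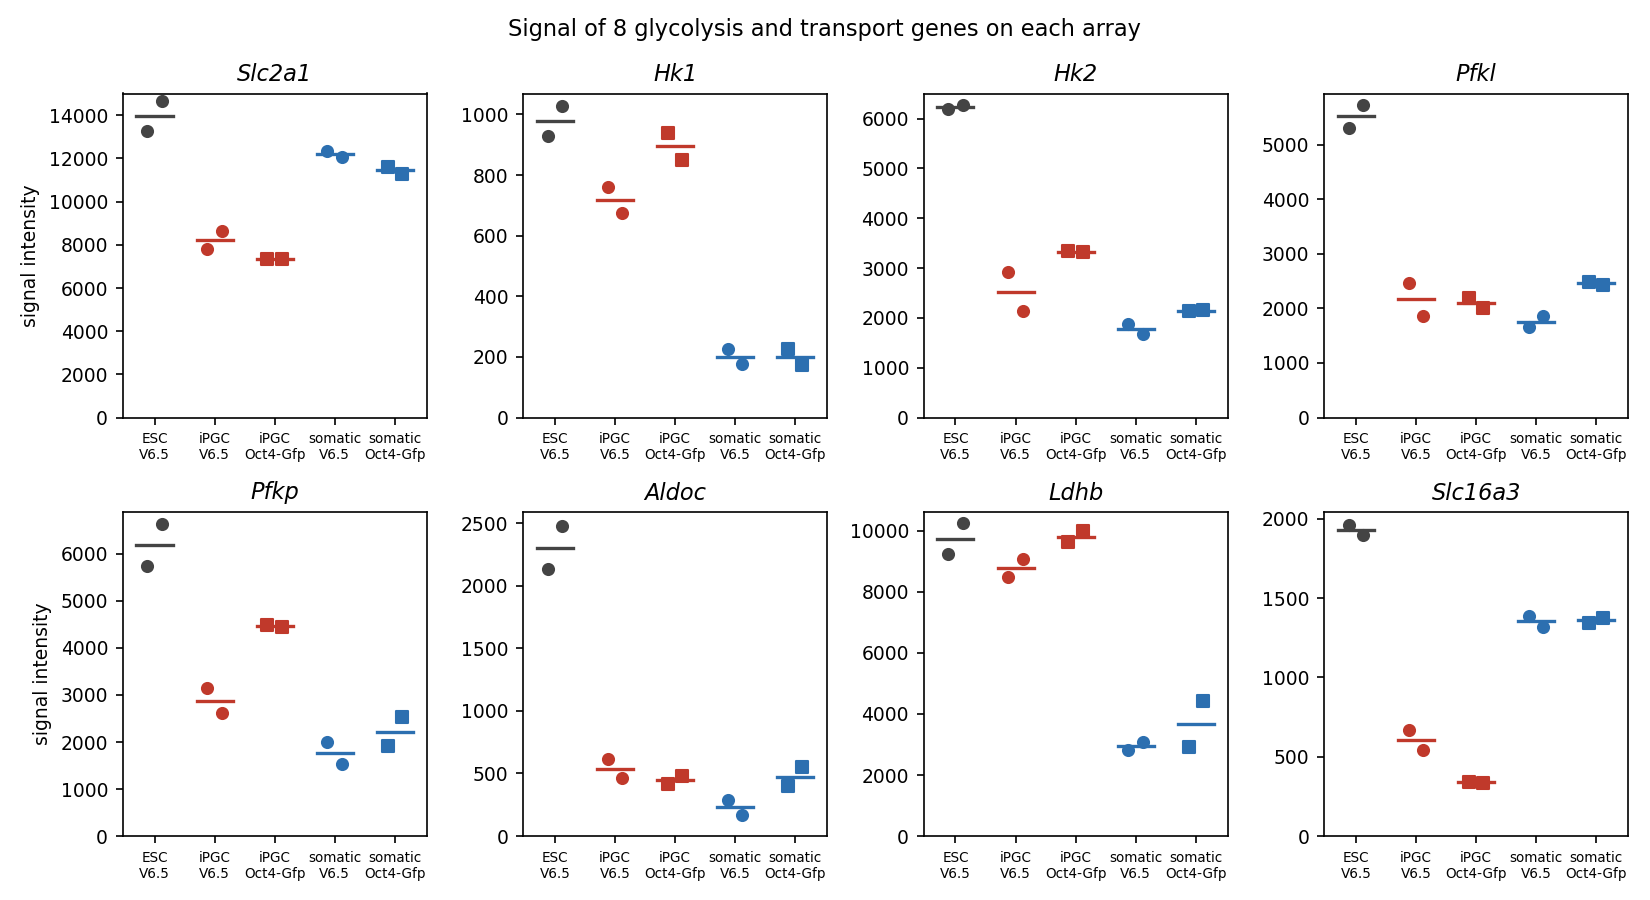
Signal intensity (linear axis from 0) of 8 glycolysis and transport genes on each of the 10 arrays, with the mean of each group as a line; circles are V6.5 and squares are Oct4-Gfp. *Slc16a3* and *Slc2a1* were lowest in iPGCs, *Hk1* and *Ldhb* were lowest in somatic cells, and *Pfkl* was high in ESCs alone, at 5314 and 5734.

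*Slc2a1*, the widely expressed glucose transporter, was also lowest in iPGCs, on a smaller scale. Its signal was 13268 to 14644 in ESCs, 7337 to 8642 in iPGCs and 11299 to 12357 in somatic cells, with no overlap. The log2 difference of iPGCs was -0.84 ± 0.11 against ESCs (adjusted p = 0.0010) and -0.61 ± 0.09 against somatic cells (adjusted p = 0.00055). All 3 of its probe sets were called in both. Unlike *Slc16a3*, it was not called in somatic cells against ESCs at any probe set (-0.24 at the brightest, limma, adjusted p = 0.088). *Slc2a3*, a high-affinity glucose transporter, had a log2 difference of -0.39 ± 0.11 from ESCs (adjusted p = 0.026). Its 4 probe sets ranged from -1.24 to -0.28 in that comparison, so the size of its change depends on the probe set.

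Both measured hexokinases, the enzymes that trap glucose in the cell, separated the populations differently. *Hk2* was at 6200.5 and 6272 in ESCs, at 2923 and 2132 in V6.5 iPGCs and at 3333 and 3326 in iPGCs of the Oct4-Gfp line. Somatic cells had 1875 and 1674 in V6.5 and 2129 and 2164 in Oct4-Gfp. The ESC arrays stood above all others, and the lowest iPGC array (2132) lay inside the range of the Oct4-Gfp somatic arrays. The difference was -1.11 ± 0.14 for iPGCs against ESCs (adjusted p = 0.0010), 0.56 ± 0.12 for iPGCs against somatic cells (adjusted p = 0.0038) and -1.67 ± 0.14 for somatic cells against ESCs (adjusted p = 3.4e-05).

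*Hk1* was at 929.9 and 1027 in ESCs, 759.9 and 674 in V6.5 iPGCs, and 940.2 and 849 in iPGCs of the Oct4-Gfp line. Somatic signals were 225 and 176 in V6.5 and 227 and 173 in Oct4-Gfp. The somatic arrays lay far below all others, while ESC and iPGC arrays overlapped. The log2 difference was 1.93 ± 0.13 for iPGCs against somatic cells, a 3.81-fold higher level (adjusted p = 7.3e-06), and -0.28 ± 0.16 for iPGCs against ESCs, with a 95% interval from -0.64 to 0.08 (adjusted p = 0.18). Its second probe set gave 1.80 and -0.31 in these comparisons.

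Phosphofructokinase, the committed step, has liver (*Pfkl*), muscle (*Pfkm*) and platelet (*Pfkp*) subunits, and each had its own pattern. *Pfkl* was at 5314 and 5734 in ESCs, at 2469.7 and 1860.1 in V6.5 iPGCs and at 2194 and 2002 in iPGCs of the Oct4-Gfp line. Somatic signals were 1661 and 1853 in V6.5 and 2482 and 2435 in Oct4-Gfp. Thus ESCs stood alone and iPGCs and somatic cells overlapped. The difference was -1.37 ± 0.14 for iPGCs against ESCs (adjusted p = 0.00047), and between iPGCs and somatic cells it was 0.03 with a 95% interval from -0.24 to 0.30.

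*Pfkp* was at 5743 and 6636 in ESCs, 3142 and 2619 in V6.5 iPGCs, 4494 and 4449 in iPGCs of the Oct4-Gfp line, 1993 and 1525 in V6.5 somatic cells, and 1906 and 2536 in Oct4-Gfp somatic cells. At this probe set ESCs were highest, iPGCs intermediate and somatic cells lowest, with no overlap. The differences were -0.78 ± 0.17 for iPGCs against ESCs (adjusted p = 0.0088) and 0.87 ± 0.14 for iPGCs against somatic cells (adjusted p = 0.00099). Its 3 probe sets ranged from -2.38 to -0.78 in the first comparison, all of them called. In the second they ranged from 0.15 to 1.07 and 2 of 3 were called. At the one that was not (0.15), iPGC and somatic arrays overlapped. *Pfkm* had a log2 difference of 0.35 ± 0.18 against ESCs and was called in none of the 3 comparisons of cell types.

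Among the aldolases, which split fructose bisphosphate, the brain-type *Aldoc* changed most. Its signal was 2134 and 2473 in ESCs, 614 and 461 in V6.5 iPGCs, and 418 and 480.1 in iPGCs of the Oct4-Gfp line. Somatic cells had 289 and 171 in V6.5 and 400.5 and 549 in Oct4-Gfp. ESCs were far above the rest, V6.5 somatic arrays were lowest, and the Oct4-Gfp somatic arrays overlapped with iPGCs. The difference was -2.20 ± 0.23 for iPGCs against ESCs (adjusted p = 0.00052), a 4.59-fold lower level, and -2.77 ± 0.23 for somatic cells against ESCs (adjusted p = 3.1e-05). *Aldoa*, the common form, fell by 0.56 ± 0.12 on the log2 scale in iPGCs, from 16189.8 ± 1185 (SD, n = 2) to 10989.9 ± 825 (SD, n = 4).

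The later enzymes of the pathway fell by less than 1 on the log2 scale or were not called. In iPGCs against ESCs, triosephosphate isomerase *Tpi1* fell by 0.70 ± 0.11, phosphoglycerate kinase *Pgk1* by 0.44 ± 0.11 and pyruvate kinase *Pkm* by 0.50 ± 0.11 on the log2 scale (adjusted p from 0.0026 to 0.012). For *Pgk1*, 1 of 3 probe sets was called in this comparison. Phosphoglycerate mutase *Pgam1* had a difference of -0.26 ± 0.12 and was not called. The neuronal enolase *Eno2* was dim and variable, at 381 and 636 on the ESC arrays, and its difference against ESCs was -0.64 ± 0.35 (adjusted p = 0.17). The brightest shared *Gapdh* probe set, which also holds other symbols, had a difference of -0.53 (adjusted p = 0.012).

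Lactate dehydrogenase *Ldha*, the form that favours lactate production, had means of 16779 ± 1309.7 (SD, n = 2) for ESCs, 10479 ± 545 (SD, n = 4) for iPGCs and 11137 ± 493 (SD, n = 4) for somatic cells, and fell by 0.68 ± 0.11 in iPGCs against ESCs (adjusted p = 0.0030). *Ldhb*, the heart-type form, was at 9236 and 10244 in ESCs, 8501 and 9076 in V6.5 iPGCs and 9633 and 9989 in iPGCs of the Oct4-Gfp line. Somatic cells had 2834 and 3084 in V6.5 and 2929 and 4422 in Oct4-Gfp. As with *Hk1*, ESCs and iPGCs overlapped and every somatic array was lower. The level in iPGCs was 2.84-fold that in somatic cells, with a 95% interval of the log2 difference from 1.19 to 1.82 (adjusted p = 4.1e-05), and the log2 difference from ESCs was -0.07, with a 95% interval from -0.46 to 0.32. All 4 *Ldhb* probe sets gave a difference between 1.45 and 1.63 against somatic cells.

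Promoter stretches of 5 members with lower signals in iPGCs than in ESCs, and of *Slc16a1*, which rose, are shown because they hold the letters ACGTG, the core of the element bound by hypoxia-inducible factors, which are known regulators of glycolytic genes. Sequences are RefSeq, build GRCm38.p6, on the gene's strand, and end before the annotated start; capitals mark ACGTG or its reverse complement, alone or overlapping as CACGTG (the E-box).
Slc16a3 (chr11:120949020-120949066, plus strand): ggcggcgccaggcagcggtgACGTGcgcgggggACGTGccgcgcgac
Ldha (chr7:46845639-46845794, plus strand): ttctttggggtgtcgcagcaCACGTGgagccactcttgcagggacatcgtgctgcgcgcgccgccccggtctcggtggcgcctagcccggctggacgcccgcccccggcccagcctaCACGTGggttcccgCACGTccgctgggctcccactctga
Hk2 (chr6:82774482-82774700, minus strand): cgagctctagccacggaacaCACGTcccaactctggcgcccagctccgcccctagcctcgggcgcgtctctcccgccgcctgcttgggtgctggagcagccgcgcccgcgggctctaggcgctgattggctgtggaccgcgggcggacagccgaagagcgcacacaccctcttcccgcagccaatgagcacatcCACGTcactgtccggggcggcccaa
Pgk1 (chrX:106186930-106186993, plus strand): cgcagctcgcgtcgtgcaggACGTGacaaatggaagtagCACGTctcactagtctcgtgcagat
Slc2a1 (chr4:119108689-119108733, plus strand): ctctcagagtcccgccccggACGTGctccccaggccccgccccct
Slc16a1 (chr3:104638444-104638489, plus strand): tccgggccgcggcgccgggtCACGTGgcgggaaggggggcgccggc

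Searched on both strands from 250 bases before to 50 bases after each annotated start, ACGTG was found in at least 1 promoter of 13 of the 20 glycolysis and transport genes with a promoter in the table (65.0%) and of 4 of the 13 TCA cycle genes (30.8%), against 21.8% of all genes. Genes can have several promoters, and counted per promoter the shares were 48.4% (15 of 31), 47.4% (9 of 19, 6 of which belong to *Ogdh*) and 19.6% of all promoters. *Slc16a3*, *Hk2* and *Pgk1* have 2 marked stretches each before the start and *Ldha* has 3, and in *Slc16a3* the last one ends 9 bases before it. Of the 11 glycolysis and transport genes with a promoter that fell in iPGCs against ESCs, 8 hold the letters and *Pfkl*, *Pfkp* and *Tpi1* do not within this window. They are also held by 3 of the 5 that were not called, and by *Slc16a1*. AAGGTCA, the core bound by *Esrrb* and related nuclear receptors, was found for 2 of 20, 1 of 13 and 5.38% of genes. These matches are a description of sequence only.

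**Figure D2:**
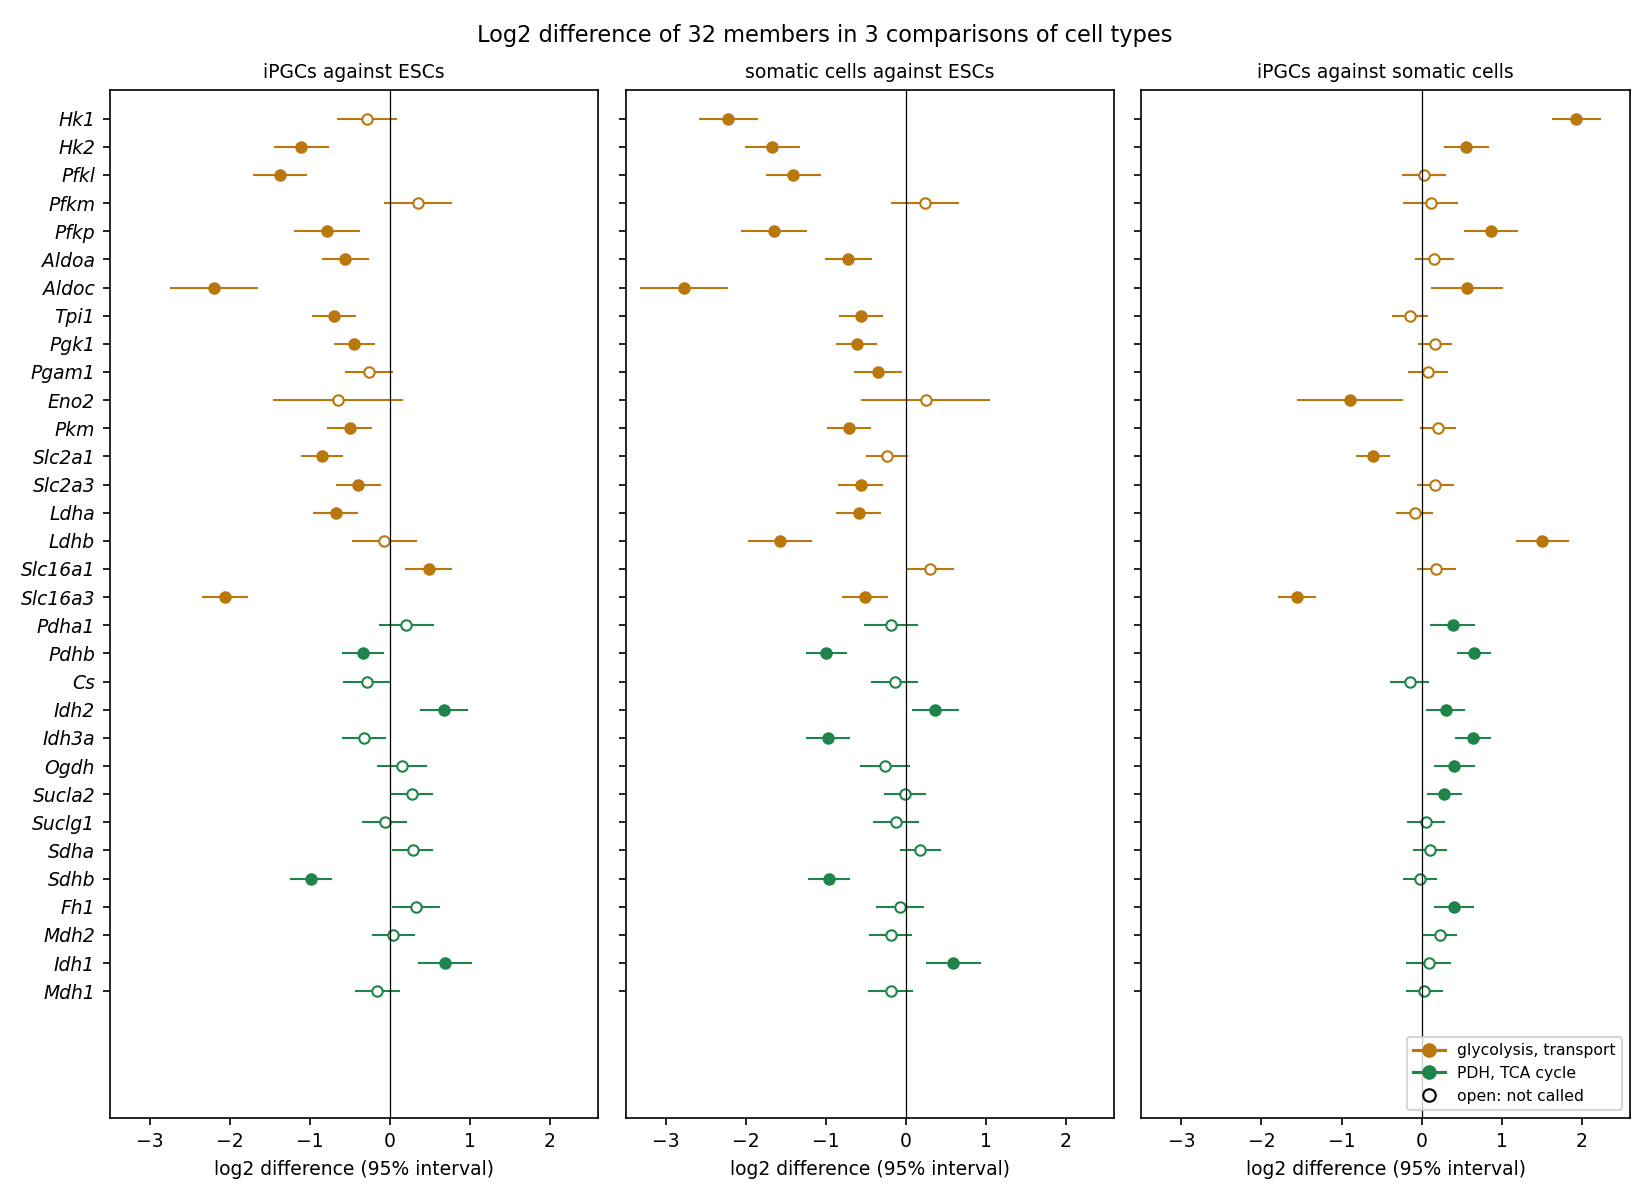
Log2 difference with its 95% interval (limma, 10 arrays) for the 32 members in 3 comparisons of cell types; filled points were called at an adjusted p under 0.05 and open points were not. In iPGCs against ESCs most glycolysis and transport genes lie left of 0, with *Aldoc* (-2.20) and *Slc16a3* (-2.06) farthest, while TCA cycle genes lie on both sides.

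Signal level moved together with the ESC comparisons. The 99th percentile of the signals was 9083 to 9572 on ESC arrays, 7502 to 8343 on iPGC arrays and 7306 to 7684 on somatic arrays, although every array had been scaled to the same trimmed mean. Of the 175 genes with a mean signal of 8000 or more, 38.9% were called lower and 1.14% higher in iPGCs against ESCs, with a median of -0.27. Among them were 7 glycolysis and transport genes, of which 6 fell, with a median of -0.50. Their part in the result was not tested. The members under that level included the 4 with the largest decreases, namely *Aldoc*, *Slc16a3*, *Pfkl* and *Hk2*.

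After quantile normalization, which gives every array the same distribution of values, 7 of the 12 decreases in iPGCs against ESCs kept their call. These were *Hk2*, *Pfkl*, *Pfkp*, *Aldoc*, *Tpi1*, *Slc2a1* and *Slc16a3*. The bright genes *Aldoa*, *Pgk1*, *Pkm*, *Slc2a3* and *Ldha* lost their call. Over all 12199 genes, 2441 were then called lower, against 2558 before it. When the *Gapdh* ratio entered the model as a covariate, 0 of the 12 decreases and 0 of all 12199 genes were called (limma; 9 of the 32 members and 2504 of all genes at an unadjusted p under 0.05), and the members' median standard error rose from 0.12 to 0.29. The estimate for *Slc16a3* was then -1.98 and that for *Aldoc* -2.62. With the *Actb* ratio, *Pfkl*, *Aldoc* and *Slc16a3* remained, where 260 of all 12199 genes were called higher and 236 lower. Without the second ESC array, 7 of the 12 remained.

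**Figure D3:**
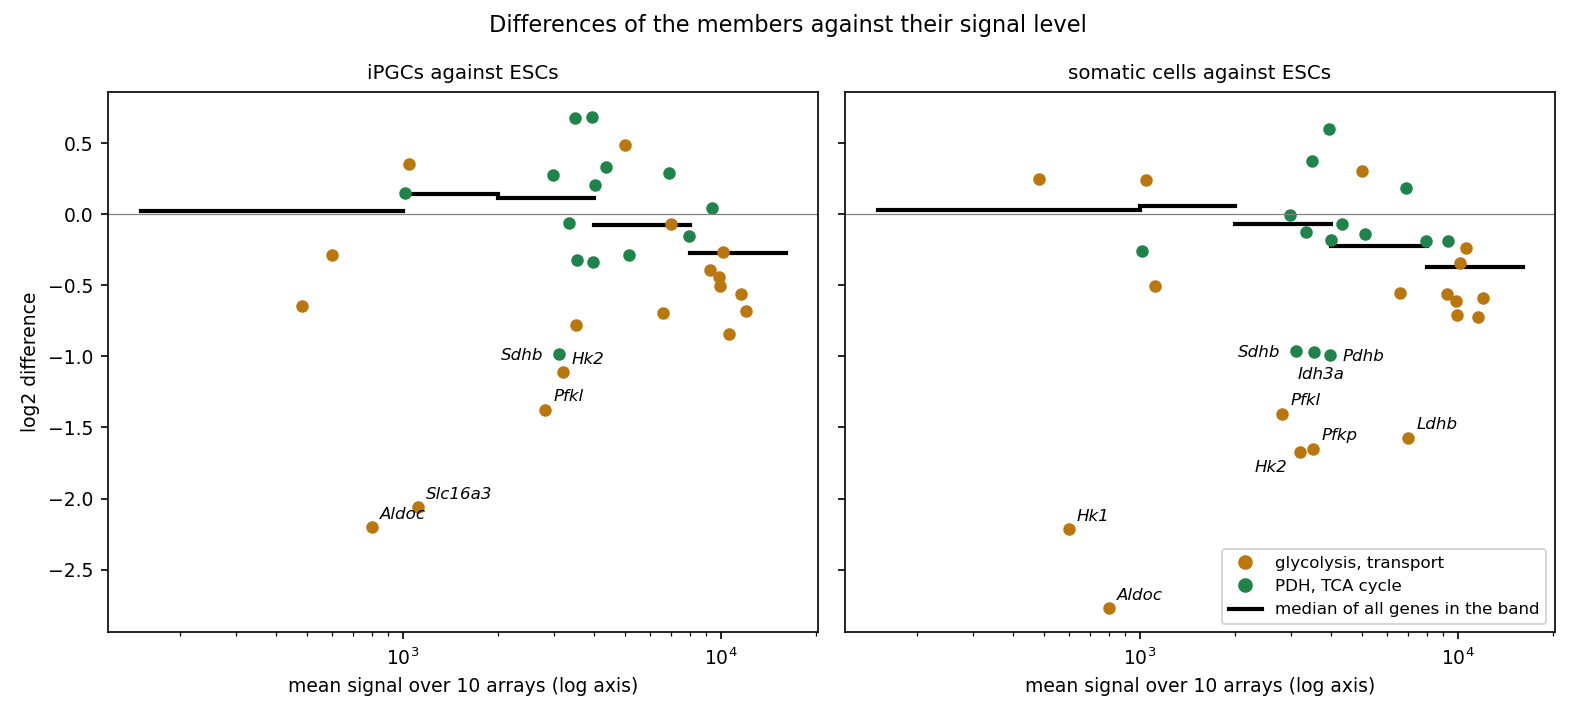
Log2 difference of the 32 members against their mean signal over the 10 arrays (log axis), with the median of all genes tested in each band of signal as a black line. In the band from 8000 the median of all genes is -0.27 in iPGCs and -0.37 in somatic cells against ESCs, and *Aldoc*, *Slc16a3*, *Pfkl* and *Hk2* lie at lower signal and below the line of their band in iPGCs.

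In the TCA cycle, 4 of 14 genes were called in iPGCs against ESCs. Both NADP-dependent isocitrate dehydrogenases rose. The mitochondrial *Idh2* went from 2560.5 ± 135 (SD, n = 2) to 4121 ± 533 (SD, n = 4), a log2 difference of 0.68 ± 0.12 (adjusted p = 0.0040). The cytosolic *Idh1* went from 2705 ± 290.1 (SD, n = 2) to 4403 ± 788 (SD, n = 4), a difference of 0.69 ± 0.14 (adjusted p = 0.0067), and both probe sets of each gene were called. The iron-sulfur subunit of succinate dehydrogenase, *Sdhb*, fell by 0.98 ± 0.11 (adjusted p = 0.00057), from 5076 ± 272 (SD, n = 2) to 2595 ± 504 (SD, n = 4).

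The flavoprotein subunit of the same enzyme, *Sdha*, did not follow *Sdhb*: its difference was 0.29 ± 0.10 (adjusted p = 0.059). *Pdhb*, the beta subunit of the first enzyme of the pyruvate dehydrogenase complex, fell by 0.34 ± 0.11 (adjusted p = 0.037), and this call was lost under 15 of 22 alternatives. The other 9 members of the cycle, among them citrate synthase *Cs* and the malate dehydrogenases *Mdh1* and *Mdh2*, had differences between -0.32 and 0.33 at their brightest probe set and were not called. Dimmer probe sets of 4 of them were called: 2 of 3 of *Idh3a* (-0.57 and -0.74), 2 of 3 of *Mdh1* (-0.47 and -0.31) and 1 of 3 of *Cs* (-0.55) were lower, and the second of *Ogdh* was higher, at 1.34 (adjusted p = 0.0010). After quantile normalization 5 of the 14 rose and 1 fell, where 2809 of all 12199 genes rose and 2441 fell.

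Against somatic cells of the same line, iPGCs had higher signals for 7 of the 14 TCA cycle genes, and none of them fell (limma; over all genes 33.7% were called higher and 29.8% lower). The median of the 14 was 0.26, against 0.07 over all genes. The largest differences were those of *Pdhb* (0.66 ± 0.09, adjusted p = 0.00033) and *Idh3a*, the catalytic subunit of the NAD-dependent isocitrate dehydrogenase (0.65 ± 0.09, adjusted p = 0.00051). For *Pdhb* the iPGC mean was 4394 ± 136 (SD, n = 4) and the somatic mean 2784 ± 133 (SD, n = 4). *Ogdh* of the oxoglutarate dehydrogenase complex, fumarase *Fh1*, *Pdha1*, *Idh2* and the succinyl-CoA ligase subunit *Sucla2* differed by 0.29 to 0.41. With the *Actb* ratio (1.29 to 1.49 on iPGC arrays and 1.25 to 1.42 on somatic arrays) as a covariate, *Pdhb* and *Idh3a* remained called, and the other 5 did not. Over all 12199 genes, 3376 were then called higher and 3176 lower.

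Probe sets of 1 gene differed for several of these genes. The second probe set of *Ogdh* was called in the opposite direction (-0.37), and 1 of the 2 probe sets of *Pdhb* was called, the other being at -0.05. For *Idh3a* 1 of 3 was called. At 2 called members (*Pdha1* and *Idh2*) the second probe set gave the same direction and a larger difference, of 1.09 and 1.78. Dimmer probe sets of members that were not called also gave calls, all higher. They were 2 of 3 of *Pgk1* (0.45 and 0.27), 1 of 4 of *Slc2a3*, 1 of 3 of *Cs* and 1 of 2 of *Sdha*.

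In the same comparison, 33.7% of all genes were called higher and 29.8% lower. Of the 18 glycolysis and transport genes, 5 were higher (*Hk1*, *Ldhb*, *Pfkp*, *Aldoc* and *Hk2*) and 3 were lower (*Slc16a3*, *Eno2* and *Slc2a1*), with a median of 0.17. When arrays were centred on their medians, which moves the median of all genes from 0.07 to 0.25, 10 were higher and 2 lower. Over all 12199 genes, 5385 were then called higher and 2906 lower. *Eno2* had an iPGC mean of 332 ± 141 (SD, n = 4) and a somatic mean of 617 ± 216 (SD, n = 4), with overlapping arrays and a difference of -0.89 ± 0.28 (adjusted p = 0.026), and its call was lost after quantile normalization. The mesoderm, fibroblast and blood markers given above move with this comparison as well, since their sums are higher on the somatic arrays than on any other, and their part in the result was not tested.

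Somatic cells differed from ESCs in 14 glycolysis and transport genes, all of them lower, with a median of -0.60, where 34.7% of all genes were lower and 32.6% higher. The comparison uses the same ESC arrays as that of iPGCs with ESCs. The largest decreases were those of *Aldoc* (-2.77), *Hk1* (-2.21), *Hk2* (-1.67), *Pfkp* (-1.65), *Ldhb* (-1.57) and *Pfkl* (-1.40). Bright genes were lower here too: of the 175 genes at 8000 or more, 64.0% were called lower, with a median of -0.37. Quantile normalization left 7 of the 14 decreases called, namely these 6 and *Slc16a3*, and 1 member rose. Over all 12199 genes, 3685 were then called higher and 4397 lower. In the TCA cycle 2 genes rose (*Idh1* and *Idh2*) and 3 fell (*Pdhb*, *Idh3a* and *Sdhb*, by 0.96 to 0.99). With arrays centred on their medians, which moves the median of all genes to -0.20, 1 rose and 6 fell. That setting called 3268 of all 12199 genes higher and 5044 lower. Without centring, the second *Idh2* probe set was called in the opposite direction, at -1.15. Dimmer probe sets of members that were not called also gave calls. The second of *Ogdh* was higher (1.72) and the second of *Pdha1* lower (-1.31). For *Cs* and *Mdh1*, 1 of 3 was called lower, with ranges from -0.84 to 0.04 and from -0.37 to -0.19.

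**Figure D4:**
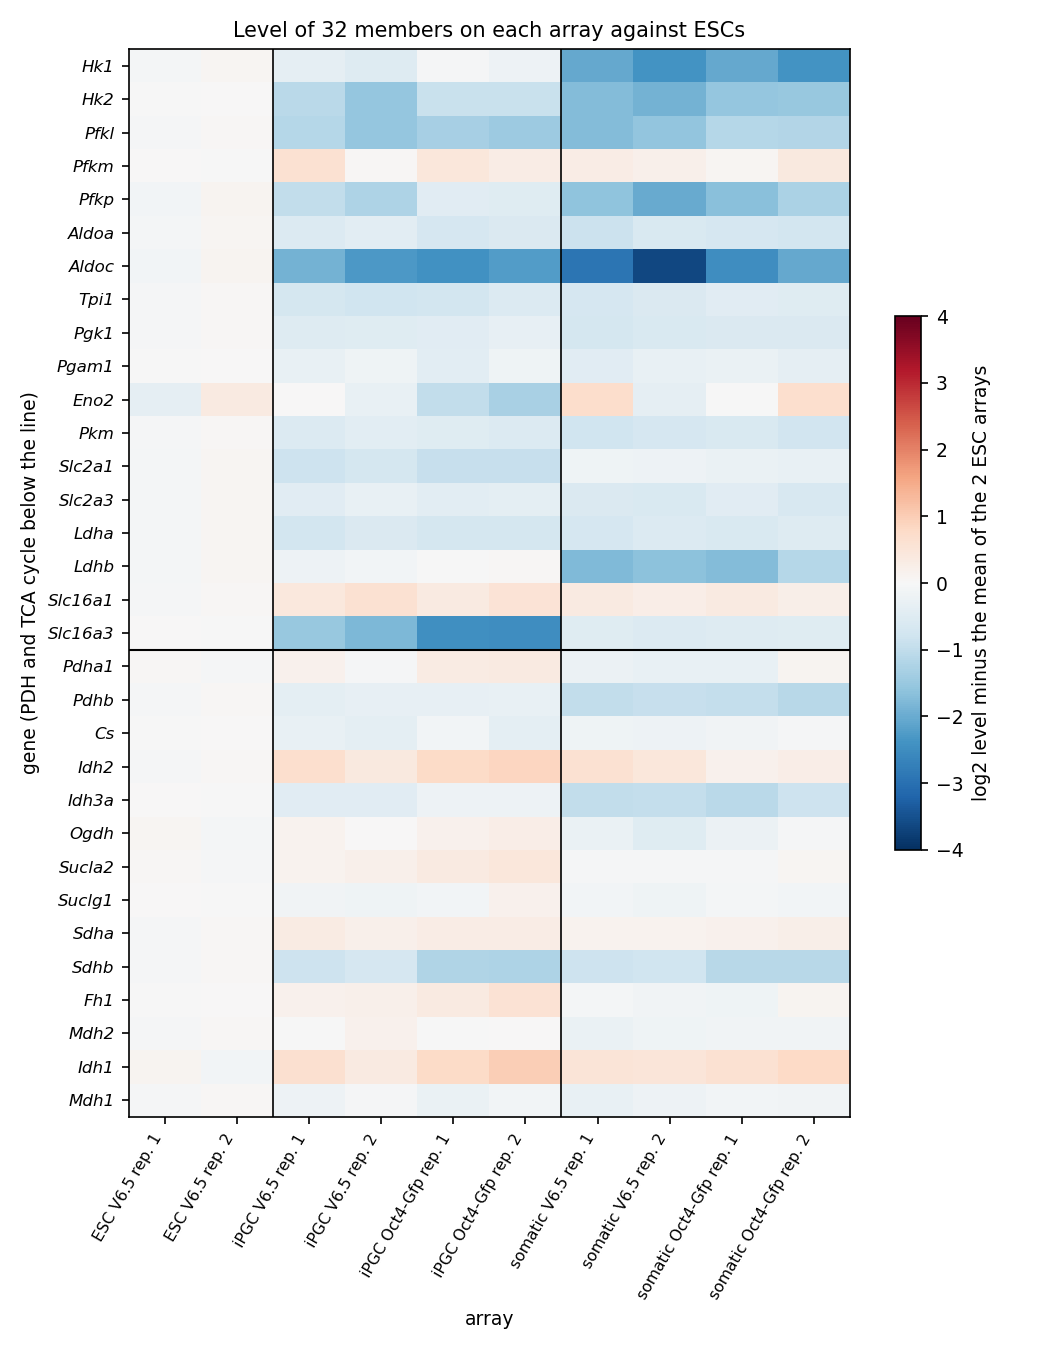
Log2 level of the 32 members on each of the 10 arrays minus the mean of the 2 ESC arrays (blue lower, red higher), with glycolysis and transport above the line and pyruvate dehydrogenase and TCA cycle genes under it. *Slc16a3* (-2.06) is darker blue in iPGCs than in somatic cells (-0.50), *Hk1* (-2.21) and *Ldhb* (-1.57) are darker in somatic cells than in iPGCs, and *Idh1* (0.69 in iPGCs and 0.60 in somatic cells) is red in both.

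Within the V6.5 line, which has ESCs of its own, 11 glycolysis and transport genes fell and 1 rose in iPGCs against ESCs (12.9% of all genes lower, 17.3% higher). In the TCA cycle 1 gene rose (*Idh2*) and 2 fell (*Sdhb* and *Idh3a*), and *Idh1* and *Pdhb* were not called. The call of *Idh3a* was lost under 14 of 22 alternatives. In V6.5 somatic cells against V6.5 ESCs, 13 fell and none rose, and in the TCA cycle 2 rose and 3 fell (31.8% of all genes lower, 30.3% higher). In V6.5 iPGCs against V6.5 somatic cells, 5 glycolysis and transport genes were higher and 2 lower, and 3 TCA cycle genes were higher and none lower (27.3% and 24.2% of all genes). In the Oct4-Gfp line the same comparison gave 4 higher and 3 lower, and 5 higher and none lower (25.7% and 24.8% of all genes).

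The 2 lines share no arrays in the comparison of iPGCs with somatic cells. Over the 32 members their log2 differences had a Pearson r of 0.849 and a Spearman rho of 0.733 as a description, and 27 of 32 had the same sign. Over all genes tested r was 0.940 and 86.1% had the same sign. The genes of one array share its RNA, and genes are not independent replicates. *Hk1* differed by 1.77 ± 0.18 in V6.5 and 2.09 ± 0.18 in Oct4-Gfp, *Ldhb* by 1.57 ± 0.19 and 1.44 ± 0.19, and *Slc16a3* by -1.15 ± 0.14 and -1.96 ± 0.14.

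*Aldoc* was the member farthest from the diagonal, at 1.20 ± 0.27 in V6.5 and -0.06 ± 0.27 in Oct4-Gfp. A limma test of the difference between lines called 0 of the 32 members and 1 of 12199 genes (0.00% higher, 0.00820% lower). At an unadjusted p under 0.05 were 3 of the 32 members and 1119 of all 12199 genes. For *Aldoc* the difference between lines was -1.26 ± 0.38 (adjusted p = 0.36) and for *Slc16a3* -0.81 ± 0.19 (adjusted p = 0.28). Between the iPGCs of the lines, 0 members were called (0.00% of all genes in either direction). There, 6 of the 32 members and 2438 of all 12199 genes were at an unadjusted p under 0.05. *Slc16a3* was at -0.80 ± 0.14 in Oct4-Gfp against V6.5 (adjusted p = 0.069).

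**Figure D5:**
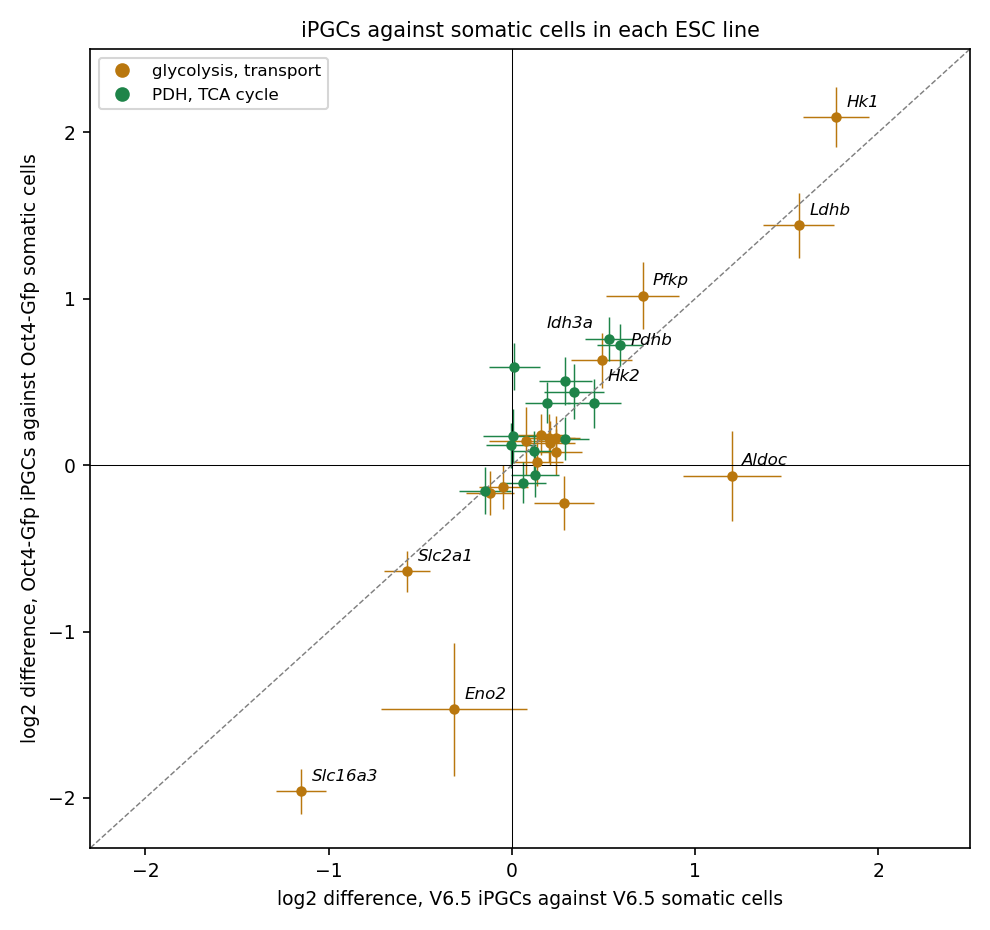
Log2 difference of iPGCs against somatic cells in the Oct4-Gfp line against that in the V6.5 line for the 32 members, with standard errors as bars and equality as a dashed line. *Hk1*, *Ldhb* and *Slc16a3* lie far from 0 in both lines, and *Aldoc* (1.20 in V6.5 and -0.06 in Oct4-Gfp) lies off the dashed line.

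Further genes of the same pathways were read from lists of their own. Of 16 tested among 27 further genes of glycolysis and gluconeogenesis, 4 rose and 7 fell in iPGCs against ESCs, with a median of 0.10, where 24.5% of all genes rose and 21% fell. The phosphoglucomutase *Pgm1* (-2.00), the insulin-responsive glucose transporter *Slc2a4* (-1.79) and *Pfkfb3* (-1.47) fell, and *Pfkfb2* rose (1.62). The last 2 make fructose 2,6-bisphosphate, an activator of phosphofructokinase. Against somatic cells 7 were higher and 7 lower (33.7% and 29.8% of all genes), with *Tigar*, a fructose bisphosphatase, at 3.34, the testis form of lactate dehydrogenase *Ldhc* at 1.63, *Adpgk* at 1.44 and the muscle enolase *Eno3* at -2.27.

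Of 23 tested among 26 further genes of pyruvate use and the TCA cycle, 2 rose and 7 fell in iPGCs against ESCs, where 24.5% of all genes rose and 21% fell. The largest called changes were decreases in the kinase *Pdk2* (-0.90), the malic enzyme *Me2* (-0.85), the citrate carrier *Slc25a1* (-0.84) and *Sdhc* (-0.72), another subunit of succinate dehydrogenase. Against somatic cells 11 were higher and 2 lower (33.7% and 29.8% of all genes), with a median of 0.25 against 0.07 over all genes. *Pdk1* (2.68) and *Pdk4* (2.43), kinases that inhibit pyruvate dehydrogenase, and *Mpc1* (1.71), a subunit of the mitochondrial pyruvate carrier, were higher, and the cytosolic malic enzyme *Me1* was lower (-1.49). In somatic cells against ESCs 3 rose and 12 fell (32.6% and 34.7% of all genes), with *Pdk1* at -2.83 and *Mpc1* at -2.31.

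The pentose phosphate pathway branches from glycolysis at glucose 6-phosphate. Of its 6 tested genes, 2 rose (*Rpia* at 1.12 and *Rpe* at 0.46) and 2 fell (*Pgls* at -1.02 and *Tkt* at -0.37) in iPGCs against ESCs, where 24.5% of all genes rose and 21% fell. Against somatic cells 4 were higher, with *Rpe* at 1.38 and *Taldo1* at 1.09, and 1 was lower (33.7% and 29.8% of all genes). Glutamine is another fuel of the TCA cycle. Of 7 tested genes for its entry, 2 fell in iPGCs against ESCs, namely the glutamine transporter *Slc1a5* (-1.44) and *Gpt2* (-0.82), and 3 were higher against somatic cells, with the aminotransferase *Got1* at 1.18 and glutamate dehydrogenase *Glud1* at 0.88. The shares of all genes are those just given.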

How the data were processed

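RNA of sorted cells was amplified with NuGEN Ovation Pico WTA and measured on the Affymetrix array named in the text. The deposited table holds linear signal intensities that the authors obtained with MAS5 per the labels (version not given in the sources used here) and scaled to a trimmed mean of 500 per array with 2% left out at each end. The methods of the study name D-Chip model-based expression, which was not used here. The table held no other columns of per-sample values.

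From 45101 probe sets, 64 control probe sets were left out, the 25th percentile of the table (14.8) was added, log2 was taken, and 26368 probe sets, each brighter than the median of its array on 2 arrays or more, were tested with limma 3.58.1 in R 4.3.3 (5 groups, 10 arrays, Benjamini-Hochberg adjustment, threshold 0.05). Symbols were taken from GEO's annotation of the platform, in which 34958 probe sets have 1 symbol, 932 several and 9211 none. The probe set with the highest mean signal stood for a gene, and 75 probe sets of 1 symbol belong to the 32 members measured, 66 of them tested. Intervals are 95% intervals of the fit, and the number of arrays limits the precision. The fit was tested on simulated data. Replicates of a group correlated at a Pearson r of 0.971 to 0.988. Promoters came from RefSeq (33 of 35 members matched). Scripts used Python 3.11.15, pandas 2.3.3 and matplotlib 3.10.9.

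The members, the further lists and the markers were chosen with earlier results of these data known. Members called with a log2 difference of at least 1 between cell types are given on every array, and up to 4 called genes with the largest difference are named from each further list and comparison. Alternatives were the offset, the filter, the normalization, the arrays in the fit, limma-trend, the probe sets of a gene, the replicate block, 2 RNA integrity ratios as covariates and each array left out. No probe-level files were analysed here.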

Additional observations from a re-analysis of the deposited data

How the results depend on the processing

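Of the called differences of single members under 22 alternatives, 2026 values kept their direction and call, 303 kept the direction only, and 3 changed sign. These 3 were *Pgam1* in somatic cells against ESCs after quantile normalization (0.080, adjusted p = 0.56) and *Idh2* averaged over its probe sets, at -0.39 in somatic cells against ESCs and -0.28 within V6.5. Of the counts of called members, 444 stayed within 1.5 times and 84 moved, as follows, and except for the arrays left out, which lower the number of samples, the cause was not tested. In iPGCs against ESCs, the glycolysis and transport genes that rose (1) were 0 with the *Gapdh* ratio, the *Actb* ratio or the mean of all probe sets, and those that fell (12) were 7 after quantile normalization, 0 with the *Gapdh* ratio and 3 with the *Actb* ratio. TCA cycle genes that rose (2) were 5 after quantile normalization or with limma-trend and 0 with either ratio. Those that fell (2) were 1 with no filter, quantile normalization, only the arrays compared or the replicate block. They were 4 with limma-trend or the mean of probe sets, and 0 with either ratio. Over all genes tested, 45.5% were called in either direction in the fit above, 43.0% after quantile normalization and 50.2% with limma-trend. The share was 0% with the *Gapdh* ratio, 4.07% with the *Actb* ratio and 43.2% with the mean of probe sets. It was 26.3% with no filter, 41.1% with only the arrays compared and 42.6% with the replicate block. In iPGCs against somatic cells, glycolysis and transport genes that were higher (5) were 10 with median centring or limma-trend. TCA cycle genes that were higher (7) were 2 with the *Actb* ratio. Of all 12199 genes, 4110 were called higher in the fit above. The number was 5385 with median centring, 4407 with limma-trend and 3376 with the *Actb* ratio. In somatic cells against ESCs, glycolysis and transport genes that rose (0) were 1 with quantile normalization or limma-trend, and those that fell (14) were 7 with quantile normalization and 6 with the *Gapdh* ratio. TCA cycle genes that rose (2) were 1 with no filter or median centring and 0 with either ratio. Those that fell (3) were 6 with median centring, 5 with limma-trend and 7 with the mean of probe sets. Over all genes tested, 67.3% were called in either direction in the fit above and 66.3% after quantile normalization. The share was 46.3% with no filter, 68.1% with median centring and 69.9% with limma-trend. It was 31.9% with the *Gapdh* ratio, 53.5% with the *Actb* ratio and 67.15% with the mean of probe sets. Within lines, both directions are counted together. In V6.5 iPGCs against ESCs, glycolysis and transport (12) gave 7 with only the arrays compared or the *Actb* ratio and 5 with the *Gapdh* ratio. The TCA cycle (3) gave 1 with no filter, only the arrays compared or the *Actb* ratio. It gave 7 with limma-trend, 0 with the *Gapdh* ratio and 5 with the mean of probe sets. Over all genes tested, 30.2% were called in the fit above, 15.1% with no filter and 15.2% with only the arrays compared. The share was 37.0% with limma-trend, 9.20% with the *Gapdh* ratio, 12.8% with the *Actb* ratio and 29.4% with the mean of probe sets. In V6.5 somatic cells against ESCs, glycolysis and transport (13) gave 7 with the *Gapdh* ratio. The TCA cycle (5) gave 3 with either ratio and 8 with limma-trend or the mean of probe sets. Over all genes tested, 62.1% were called in the fit above and with the mean of probe sets. The share was 65.7% with limma-trend, 34.2% with the *Gapdh* ratio and 54.6% with the *Actb* ratio. In iPGCs against somatic cells, the TCA cycle in V6.5 (3) gave 6 with limma-trend, where the share of all genes called moved from 51.5% to 55.7%. In Oct4-Gfp, glycolysis and transport (7) gave 11 with median centring and 4 with the *Gapdh* ratio. The TCA cycle (5) gave 8 with median centring, 3 with only the arrays compared and 2 with either ratio. Over all genes tested, 50.4% were called in the fit above, 56.9% with median centring and 43.0% with only the arrays compared. The share was 32.9% with the *Gapdh* ratio and 34.3% with the *Actb* ratio. Between iPGCs of the lines, limma-trend called 2 glycolysis and transport genes and 1 TCA cycle gene. It then called 122 of all 12199 genes higher and 311 lower, against 0 in the fit above.

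With 1 array left out, the counts in iPGCs against ESCs ranged from 0 to 2 higher and 7 to 12 lower for glycolysis and transport, and from 1 to 2 higher and 1 to 3 lower for the TCA cycle, with 7 lower without ESC replicate 2. In iPGCs against somatic cells they ranged from 4 to 5 higher and 2 to 3 lower, and from 4 to 7 higher and 0 to 0 lower, with 4 higher TCA cycle genes without iPGC Oct4-Gfp replicate 2, somatic Oct4-Gfp replicate 1 or somatic V6.5 replicate 2. In somatic cells against ESCs they ranged from 0 to 0 higher and 13 to 14 lower, and from 0 to 2 higher (0 without ESC replicate 2, and 1 without ESC replicate 1, somatic V6.5 replicate 1 or somatic Oct4-Gfp replicate 2) and 3 to 3 lower. Within V6.5 they were 6 to 12 and 1 to 3 in iPGCs against ESCs (6 without ESC replicate 2), 12 to 13 and 3 to 5 in somatic cells against ESCs, and 5 to 7 and 1 to 3 in iPGCs against somatic cells. In Oct4-Gfp they were 5 to 7 and 2 to 6 (2 without iPGC Oct4-Gfp replicate 2), and between lines 0 to 0. The counts with 1 array left out come from fits with a group of 1 array. They are not set beside shares of all genes, so they are not read as particular to the members. Replicate numbers did not pair arrays (2 of 10 pairs of groups correlated above 0.1, range -0.29 to 0.26), and the replicate block moved no other count by over 1.5 times.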
